A study of Mus musculus with 5 samples.

Results

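The suppressor of cytokine signalling (SOCS) family was followed in mouse bone marrow-derived macrophages, the phagocytes that grow out of marrow cells kept in the growth factor M-CSF. The family was taken as 8 gene symbols, Socs1 to Socs7 and Cish. All 8 were found among 20583 gene symbols of the deposited count table, in 12 of its 27457 transcript rows, and 1 row was kept per gene, the one with the most reads on average. The cells came from C57BL/6 background mice aged 7 to 8 weeks and were cultured for 7 days with 25 ng/ml M-CSF. Of the 5 RNA libraries, 3 were labelled wild type (replicates 1, 2 and 3) and 2 were labelled NICcA (replicates 2 and 3). The labels neither spell out NICcA nor name a Cre driver, and do not say whether libraries came from separate mice.

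SOCS proteins are brakes on cytokine receptors. Cytokine binding activates receptor-bound JAK kinases, these phosphorylate STAT transcription factors, and the STATs switch on several SOCS genes, whose products then shut the receptor down. Each protein carries an SH2 domain that binds phosphorylated tyrosines and a SOCS box that recruits elongins and a cullin to mark the bound protein for degradation. SOCS1 and SOCS3 also hold a short region that blocks the JAK kinase itself. In macrophages SOCS1 is best known for limiting interferon signalling and SOCS3 for limiting interleukin-6 signalling.

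Short stretches at 3 of the promoters are shown because they hold the letters that STAT and interferon regulatory factors are known to bind. RefSeq promoter windows (GRCm38.p6, 250 bases before to 50 after the annotated start) were matched to members by symbol. This gave 4 of the 8 members, namely Cish, Socs1, Socs3 and Socs4. A chromosome was left out of the match, though not out of the shares over all windows given below. Other members may therefore have windows that were not read. The STAT motif TTCNNNGAA and a wider form, TTC and GAA with 4 bases of any kind between them, read the same on both strands. The motif of interferon regulatory factors, GAAA and GAAA with 2 bases of any kind between them, was searched on both strands and was chosen after the Socs1 sequence had been seen. Capitals mark the matches, and each stretch is written 5′ to 3′ on the gene's strand.
Cish (chr9:107296649-107296678, + strand): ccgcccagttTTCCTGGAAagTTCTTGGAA
Socs3 (chr11:117969501-117969530, - strand): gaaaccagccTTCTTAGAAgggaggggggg
Socs1 (chr16:10785600-10785629, - strand): agacttgccgGAAAGAGAAACCGAAAgcgg

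Cish held 2 copies of TTCNNNGAA, the first beginning at the annotated start base and the next at base 12, inside an exon of a longer GENCODE transcript of the gene. Socs3 held 1 copy, beginning 154 bases before the start. Of 32851 RefSeq windows, 8.30% held at least 1 copy and 0.457% at least 2. Socs1 held 2 overlapping copies of the interferon regulatory factor motif, beginning 83 and 77 bases before the start, where 3.44% of windows held at least 1 copy and 0.225% at least 2 (overlapping copies included). The Socs4 window held none of the 3 motifs, and the wider STAT form was found in none of the 4 windows (6.95% of all windows). These matches describe sequence, and the data do not measure binding.

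The libraries held 57442309 to 76562905 counts over all rows. Values are given as CPM, the count scaled to a library of 1000000 reads. Markers of the labelled cell type were abundant: Csf1r, the M-CSF receptor, stood at 843 to 1146 CPM among wild type and 856 to 861 CPM among NICcA libraries. Lyz2, the lysozyme of macrophages, stood at 11521 to 17517 CPM among wild type and 9302 to 10411 CPM among NICcA libraries. Of 10 tested macrophage markers, 3 (Lyz2, Cd68 and Mertk) were lower and 1 (Fcgr1) was higher in both NICcA libraries than in every wild type library. Over all tested genes these shares were 18.5% lower and 18.3% higher. Among the markers 0 were called by edgeR, and Fcgr1 was called higher by DESeq2. Markers of T, NK and B cells summed to 1.56 to 2.47 CPM in wild type and 2.41 to 3.16 CPM in NICcA libraries. Hes1, a direct Notch target, had counts of 1, 5 and 6 in wild type against 185 and 125 in NICcA, and Notch1 stood at 67.4 to 78.5 and 84.2 to 87.6 CPM. The NICcA libraries differed from each other. For 14 targets of STAT3, all of them tested, the median excess over the wild type mean, in log2 CPM, was 0.48 in NICcA replicate 2, -0.14 in NICcA replicate 3 and -0.11 to 0.089 among wild type libraries.

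The family separated by member. Socs1, Socs2, Socs3 and Cish, the members best known as cytokine-induced, were higher in both NICcA libraries than in every wild type library, with fitted differences of 2.09-fold to 4.75-fold. Socs6 was lower in both NICcA libraries, by 1.40-fold, and Socs4, Socs5 and Socs7 overlapped between the genotypes. None of these differences passed the test. By the quasi-likelihood test of edgeR, with Benjamini-Hochberg adjustment across 18267 tested rows, 0 of 8 members were called at an adjusted p below 0.05, where 0.03% of 13341 tested genes were called. At an unadjusted p below 0.05 edgeR counted 5 of 8 members and 14.5% of all genes. DESeq2, the other count test, called 2 members, Socs2 and Socs3, where it called 3.95% of genes, and limma-voom and limma on RPKM called 0.

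Groups that do not overlap are common in these data. Both NICcA libraries lay above all wild type libraries for 18.3% of tested genes and below them for 18.5%, beside 4 and 1 of the 8 members. The members' median log2 fold change (NICcA minus wild type) was 0.57, beside 0.0028 over all tested genes. A log2 fold change of at least 1 was reached by 4 members and by 6.32% of all genes.

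**Figure D1:**
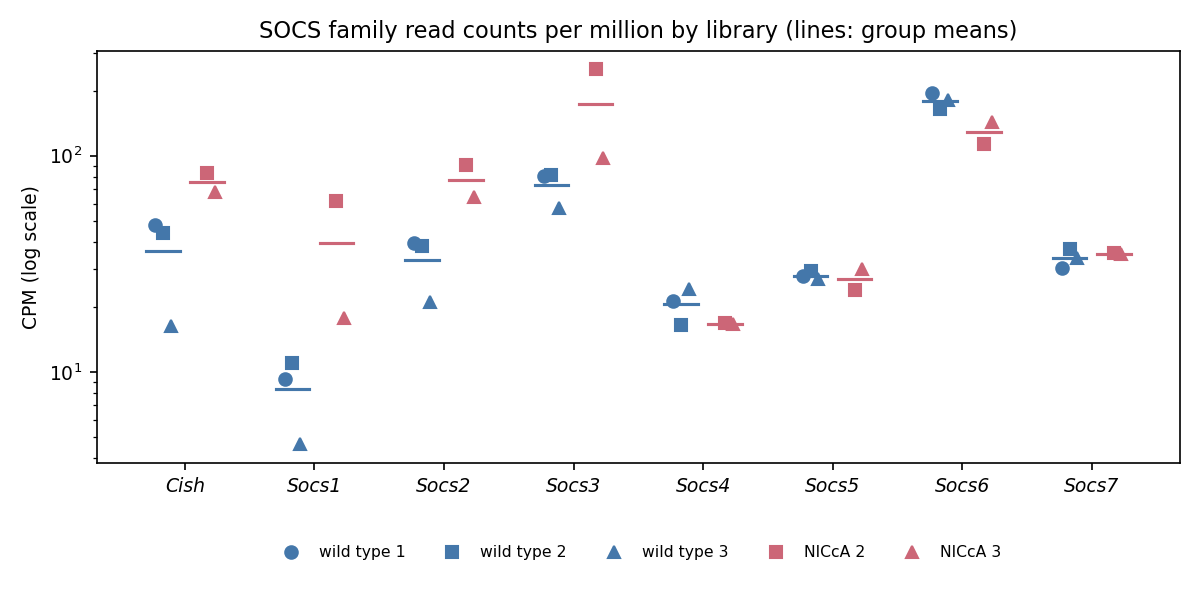
CPM (log axis) of the 8 SOCS family genes in each library, with wild type in blue and NICcA in red, symbols giving the replicate number and short lines the group means. Socs1, Socs2, Socs3 and Cish have both red points above all blue points, and Socs6 has both below.

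Socs1, which binds JAK kinases and interferon receptors, had the largest fitted difference of the family. It stood at 9.30, 11.0 and 4.63 CPM in wild type libraries 1, 2 and 3, against 61.4 and 17.7 CPM in NICcA libraries 2 and 3. The lower NICcA library was 1.61-fold above the highest wild type library, and the NICcA libraries differed from each other by 3.46-fold. The log2 fold change was 2.25 (SE 0.57, edgeR adjusted p = 0.28). Without NICcA replicate 2, which leaves 1 NICcA library, it was 1.09.

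Socs3, which binds gp130, the shared receptor chain of the interleukin-6 family, followed the same libraries. Its level was 80.3, 81.6 and 57.3 CPM in the wild type libraries against 251 and 97.4 CPM in the NICcA libraries. NICcA replicate 2 was far above the rest, while NICcA replicate 3 was only 1.19-fold above the highest wild type library. The log2 fold change was 1.25 (SE 0.39, edgeR adjusted p = 0.30, DESeq2 adjusted p = 0.037). Without NICcA replicate 2 it was 0.41.

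Socs2, the inhibitor of growth hormone signalling and a known STAT5 target, was more even between the NICcA libraries. It stood at 39.2, 38.4 and 21.1 CPM in the wild type libraries against 90.8 and 64.2 CPM in the NICcA libraries, a difference of 1.42-fold between the NICcA libraries. The lower NICcA library was 1.64-fold above the highest wild type library. The log2 fold change was 1.24 (SE 0.30, edgeR adjusted p = 0.28, DESeq2 adjusted p = 0.0067), and without NICcA replicate 2 it was 0.96.

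Cish, which competes with STAT5 for docking sites on cytokine receptors, was the most even of these 4 genes in NICcA and the most uneven in wild type. Its level was 47.8, 44.1 and 16.3 CPM in the wild type libraries against 83.2 and 67.8 CPM in the NICcA libraries. Wild type libraries differed by up to 2.93-fold, more than the fitted 2.09-fold difference between genotypes. The log2 fold change was 1.07 (SE 0.43, edgeR adjusted p = 0.34, DESeq2 adjusted p = 0.14), and without NICcA replicate 2 it was 0.91. The annotated genes Gm17040 and Gm17041 overlap 4.07% and 7.46% of the exonic bases of Cish on the opposite strand in GENCODE vM21, and the strand setting of the counts is not given in the sources used here. No other member had an exon overlapping another gene.

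Wild type replicate 3 had the lowest level of the 5 libraries for each of Socs1, Socs2, Socs3 and Cish. Without that library the log2 fold changes were 1.96 for Socs1, 0.998 for Socs2, 1.10 for Socs3 and 0.72 for Cish. Cish was the member whose fitted difference was smallest of the 4 without it, with an SE of 0.15 in place of 0.43 and an edgeR adjusted p of 0.29.

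The other members are less known as cytokine-induced, and no response to an added cytokine was measured here. Socs6, which is known to bind the insulin receptor and the receptor tyrosine kinase KIT, stood at 194, 165 and 181 CPM in the wild type libraries against 113 and 144 CPM in the NICcA libraries. The NICcA libraries were both below the lowest wild type library, in the direction opposite to Socs1, Socs2, Socs3 and Cish. The log2 fold change was -0.48 (SE 0.15, edgeR adjusted p = 0.30, DESeq2 adjusted p = 0.069). It stayed negative in each of the 18 alternative analyses, from -0.67 to -0.32.

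Socs4 and Socs5, which act on the epidermal growth factor receptor, showed no separation. Socs4 stood at 21.2, 16.5 and 24.2 CPM in the wild type libraries against 16.8 and 16.7 CPM in the NICcA libraries. The fitted log2 fold change was -0.30, SE 0.18, edgeR adjusted p = 0.44, and -0.17 without wild type replicate 3. Socs5 stood at 27.6, 29.3 and 26.8 CPM in the wild type libraries against 23.9 and 30.01 CPM in the NICcA libraries. Its log2 fold change was -0.050 (SE 0.13, edgeR adjusted p = 0.87), and the sign turned under other settings. Socs7, which also binds insulin signalling proteins, stood at 30.1, 37.1 and 33.5 CPM in the wild type libraries against 35.5 and 35.1 CPM in the NICcA libraries. Its log2 fold change was 0.071 (SE 0.12, edgeR adjusted p = 0.79). On the authors' RPKM scale both NICcA values of Socs7, 4.30 and 4.28, lay just above the highest wild type value of 4.11.

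**Figure D2:**
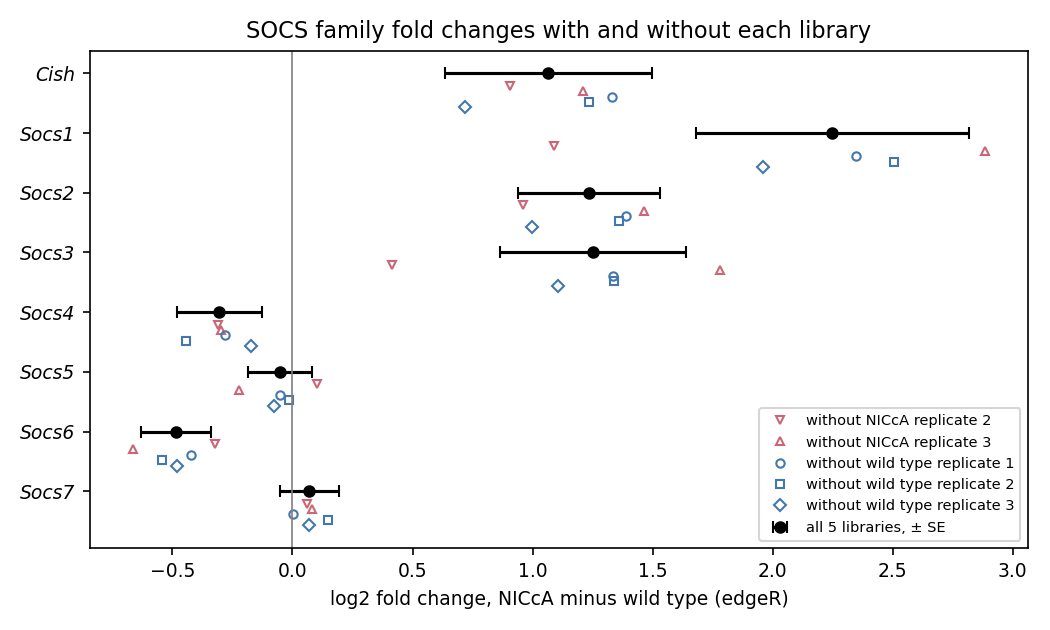
Log2 fold change (NICcA minus wild type) of each member from edgeR on all 5 libraries (black, bars ± SE) and from fits that leave out 1 library (open symbols). Without NICcA replicate 2 the value of Socs1 is 1.09 in place of 2.25 and that of Socs3 is 0.41 in place of 1.25.

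More than 1 transcript row existed for Socs1 (2 rows) and Socs2 (4 rows). Rows of a gene share reads: the other Socs1 row carried 87.1% to 91.8% of the count of the main row, and the other Socs2 rows 90.4% to 96.4%. Their log2 fold changes were 2.22 for the other Socs1 row and 1.21 to 1.22 for the other Socs2 rows. The rows therefore give no separate view of the isoforms.

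Levels of different genes were compared on the authors' RPKM, which divides by transcript length. In wild type cells Socs6 was the most abundant member, at 44.2 ± 4.62 RPKM (mean ± SD, n = 3), and its library range lay apart from that of the next gene. Socs3 followed at 21.2 ± 4.19 RPKM, Cish at 13.2 ± 6.44, Socs2 at 11.7 ± 3.77 and Socs4 at 7.56 ± 1.44 RPKM, each overlapping its neighbour in the order. Socs5 at 5.0 ± 0.235, Socs1 at 4.90 ± 1.96 and Socs7 at 3.77 ± 0.320 RPKM came last. Socs4 and Socs5 lay apart, and Socs1 overlapped both Socs5 and Socs7.

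The order differed in NICcA cells. Socs3 had the highest mean, 54.4 ± 33.8 RPKM (n = 2), with its range overlapping that of Socs6 at 34.2 ± 5.86 RPKM. Cish at 29.8 ± 4.23 and Socs2 at 29.7 ± 7.15 RPKM were close to Socs6, and Socs1 at 25.2 ± 19.6 RPKM stood above Socs4, Socs5 and Socs7 in both libraries. These last were at 6.62, 5.23 and 4.29 RPKM.

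Summed over the 8 members, the family level was 127, 114 and 93.2 RPKM in wild type and 230 and 148 RPKM in NICcA. Socs1, Socs2, Socs3 and Cish together made up 48.5%, 51.7% and 34.6% of that sum in wild type against 80.2% and 62.9% in NICcA. Socs6 alone made up 38.5%, 34.9% and 46.9% in wild type against 13.0% and 25.8% in NICcA. The sum of Socs4, Socs5, Socs6 and Socs7 spanned 55.1 to 65.6 RPKM in wild type and was 45.6 and 55.0 RPKM in NICcA. In bulk RNA, a change in the share of cells that make a transcript and a change in transcript per cell cannot be told apart.

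**Figure D3:**
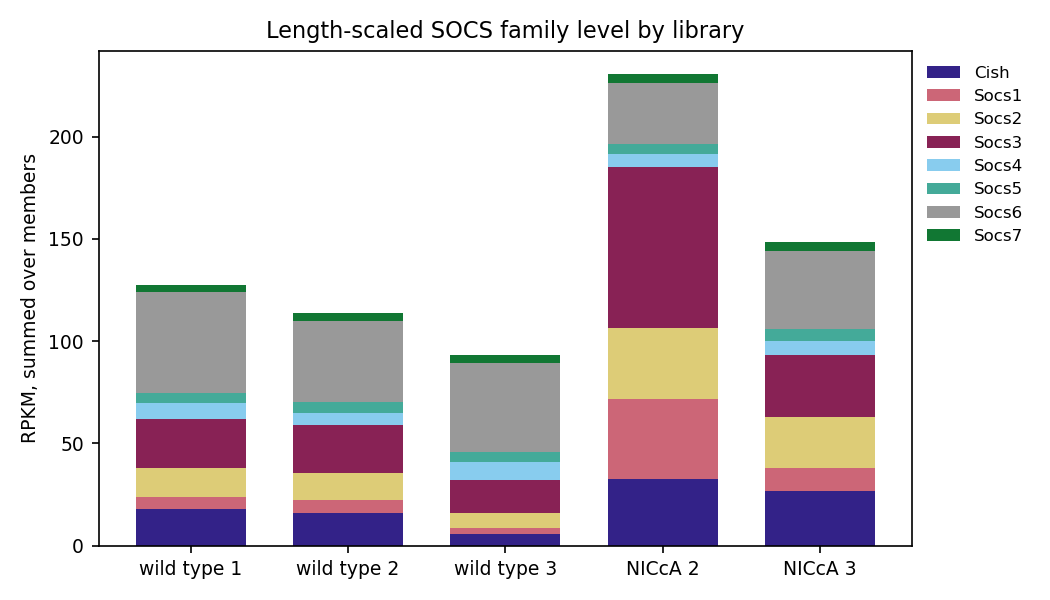
RPKM of the 8 members stacked for each library, so that the bar height is the family sum. Socs6 (grey) is the widest band in each wild type library, and Socs3, Socs2, Socs1 and Cish fill most of the bar in NICcA replicates 2 and 3.

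Genes around the family were read from 8 lists, with 0 genes called by edgeR in any of them. Over all tested genes DESeq2 called 3.95%, and 14.5% had an unadjusted edgeR p below 0.05. The partners of the SOCS box, which build the ubiquitin ligase, had small differences. Of 10 tested, 0 had an unadjusted edgeR p below 0.05 and 0 were called by DESeq2, with a median log2 fold change of -0.038. Arih2, a ligase that works with cullin-5, stood at 52.7, 58.0 and 57.0 CPM in the wild type libraries against 47.9 and 50.2 CPM in the NICcA libraries. Ube2m, which loads NEDD8 onto cullins, stood at 35.9, 43.1 and 43.0 CPM in the wild type libraries against 56.4 and 42.8 CPM in the NICcA libraries.

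Cytokines that signal through JAK and STAT were scarce. Of 18 listed, 10 were abundant enough to test, some of them only through the NICcA libraries, so no count of directions or median is given for the list. DESeq2 called Il12b and Lif higher. Il12a, with counts of 2, 1 and 3 in wild type against 282 and 97 in NICcA, was also called. It passed the filter only through NICcA, so its call is not read as a result. Il12b, the p40 subunit of interleukin-12, stood at 0.798, 1.90 and 1.37 CPM in the wild type libraries against 62.8 and 7.60 CPM in the NICcA libraries, high in the same library as Socs1. Il12a, the p35 subunit, stood at 0.0347, 0.0136 and 0.0455 CPM in the wild type libraries against 4.22 and 1.34 CPM in the NICcA libraries. Il6, chosen after its values were seen, stood at 0.104, 2.29 and 0.0607 CPM in the wild type libraries against 9.53 and 0.0970 CPM in the NICcA libraries.

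Receptors on which SOCS proteins act went both ways. Of 25 tested, 11 had a positive and 14 a negative log2 fold change, and DESeq2 called 1 higher, Il12rb1, and 1 lower, Il7r. Il7r, the interleukin-7 receptor chain, stood at 138, 158 and 225 CPM in the wild type libraries against 85.0 and 74.5 CPM in the NICcA libraries. The fitted log2 fold change was -1.12 (SE 0.23, edgeR adjusted p = 0.27). Il12rb1, a chain of the interleukin-12 receptor, stood at 0.330, 0.232 and 0.197 CPM in the wild type libraries against 1.69 and 0.721 CPM in the NICcA libraries.

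The kinases and STATs had a median log2 fold change of 0.21 over 11 genes, with 0 called by edgeR or DESeq2 and 2 at an unadjusted edgeR p below 0.05. Stat4, which relays interleukin-12, stood at 2.29, 3.56 and 1.68 CPM in the wild type libraries against 5.94 and 4.62 CPM in the NICcA libraries. Stat2, a part of the interferon-activated complex, stood at 58.9, 52.0 and 39.3 CPM in the wild type libraries against 141 and 56.4 CPM in the NICcA libraries, high in NICcA replicate 2 alone.

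Among 15 other brakes on the pathway DESeq2 called 2 lower and 0 higher. Cblb, a ubiquitin ligase that dampens receptor signalling, stood at 18.6, 26.3 and 34.1 CPM in the wild type libraries against 14.0 and 11.8 CPM in the NICcA libraries. The fitted log2 fold change was -1.03 (SE 0.27, edgeR adjusted p = 0.28, DESeq2 adjusted p = 0.017). Dusp3, a phosphatase, stood at 148, 159 and 207 CPM in the wild type libraries against 98.8 and 101 CPM in the NICcA libraries. The fitted log2 fold change was -0.78 (SE 0.17, edgeR adjusted p = 0.27, DESeq2 adjusted p = 0.0052). Both genes were lower in the NICcA libraries than in every wild type library, opposite to Socs1, Socs2, Socs3 and Cish, while the median of the 15 was 0.033. Of the 15, 6 were lower and 1 (Ptpn6) was higher in both NICcA libraries, beside 18.5% and 18.3% of all tested genes.

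**Figure D4:**
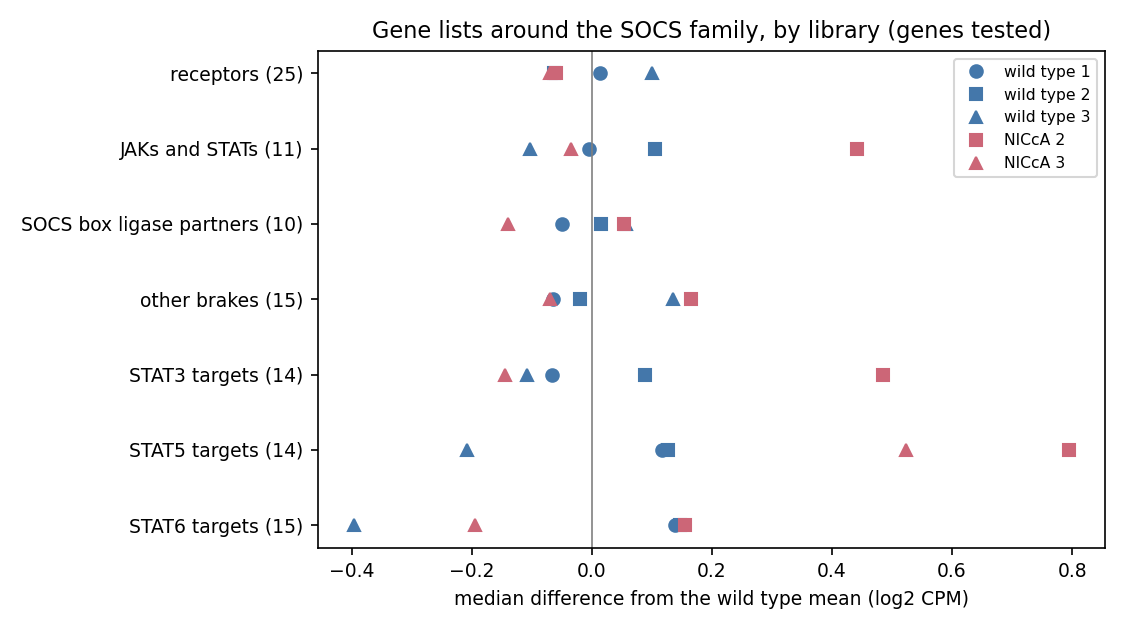
Median difference from the wild type mean (log2 CPM) of the tested genes in 7 lists (cytokines are not drawn), 1 symbol per library, wild type in blue and NICcA in red. For STAT3 targets the red symbols are at 0.48 (replicate 2) and -0.14 (replicate 3), and for STAT5 targets at 0.79 and 0.52.

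STAT5 targets stood higher in both NICcA libraries than in every wild type library for 11 of 14 tested genes, beside 18.3% of all tested genes. Another 2, Lpl and Igf1, were lower in both, beside 18.5%. The list medians were 0.79 and 0.52 in NICcA replicates 2 and 3 and -0.21 to 0.13 in wild type. DESeq2 called 4 higher and 1 lower (Igf1), beside 3.95% of all genes. By edgeR 0 were called, with 10 at an unadjusted p below 0.05, beside 14.5% of all genes. Bcl2, a survival factor, stood at 7.46, 6.40 and 6.95 CPM in the wild type libraries against 17.9 and 13.6 CPM in the NICcA libraries. Myc, a growth regulator, stood at 8.19, 8.68 and 8.18 CPM in the wild type libraries against 13.5 and 11.8 CPM in the NICcA libraries. Myc is also a known Notch target.

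STAT3 targets, whose library medians are given above, had 0 of 14 called by edgeR or DESeq2 and 3 at an unadjusted edgeR p below 0.05. The smallest p values in that list belonged to receptor chains that are also counted in the receptor list above, so the lists are not separate here. Il4ra, of the interleukin-4 receptor, stood at 147, 139 and 111 CPM in the wild type libraries against 216 and 171 CPM in the NICcA libraries. Il21r stood at 25.2, 20.9 and 17.3 CPM in the wild type libraries against 40.4 and 28.0 CPM in the NICcA libraries.

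STAT6 targets split, with 7 of 15 at a positive and 8 at a negative log2 fold change, and DESeq2 called 1 higher and 3 lower. Ccl24, an eosinophil attractant, stood at 1.02, 0.123 and 0.319 CPM in the wild type libraries against 76.8 and 29.0 CPM in the NICcA libraries. Retnla, a marker of interleukin-4 activation, stood at 1.02, 0.819 and 1.24 CPM in the wild type libraries against 0.12 and 0.111 CPM in the NICcA libraries. With counts of 8 in each NICcA library, Retnla passed the filter only through wild type. It is among the 3 called lower by DESeq2 and remains in the counts above, but its call is not read as a result.

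The genes with the most similar profile over the 5 libraries were sought for the 4 higher members, by the root mean square difference of centred log2 CPM among 9394 other genes at 5 CPM or more. With 5 libraries this likeness describes these libraries only. Nearest to Socs1 were Gbp5 (0.18), a guanylate-binding protein, Mx1 (0.24), an antiviral GTPase, and Upp1 (0.24), a uridine phosphorylase. Nearest to Socs3 were H2-T22 and H2-T9 (0.093 and 0.094), similar class I genes that can share reads, and Gbp3 (0.12). Gbp5 stood at 7.51, 7.31 and 3.81 CPM in the wild type libraries against 49.8 and 10.8 CPM in the NICcA libraries. H2-T22 stood at 52.5, 58.7 and 42.4 CPM in the wild type libraries against 166 and 60.3 CPM in the NICcA libraries.

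Socs2 and Cish had other neighbours. Nearest to Socs2 were Zbtb46 (0.075), a transcription factor of classical dendritic cells, Cytip (0.13), a regulator of leukocyte adhesion, and Mcm2 (0.14), a subunit of the replicative helicase. Nearest to Cish were Galnt3 (0.079), a glycosyltransferase, Igflr1 (0.092), a receptor of the TNF receptor family, and Tk1 (0.096), a thymidine kinase of S phase. Zbtb46 stood at 5.33, 4.82 and 2.67 CPM in the wild type libraries against 10.7 and 7.61 CPM in the NICcA libraries. Within the family, Socs2 and Cish had the most similar profiles of the 4 higher members (0.24).

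Markers of dendritic cells, which marrow cultures can hold, differed among themselves. Of 11 listed and tested, 7 were higher in both NICcA libraries than in every wild type library, beside 18.3% of all tested genes. The other 4 (Ccr7, Itgax, Clec9a and Ccl22) overlapped. By edgeR 0 were called, and DESeq2 called Dpp4 higher. Of the 7, Flt3, Xcr1 and Siglech stayed below 1 CPM in all libraries. Siglech, with counts of 10, 6 and 4 in wild type against 18 and 51 in NICcA, passed the filter only through NICcA. It remains in the count and the medians. Clec9a and Itgax had negative log2 fold changes of -1.14 and -0.19. The list medians were 1.38 and 0.89 in NICcA replicates 2 and 3 and -0.50 to 0.29 in wild type, in log2 CPM over the wild type mean. Their summed level was 793 to 1017 CPM in the wild type libraries against 1309 and 756 CPM in the NICcA libraries, most of it from Itgax, which macrophages also express, and 0 of the 11 were at 0 in all libraries. Neutrophil markers had medians of 0.32 and 0.83 in NICcA replicates 2 and 3 and -0.34 to 0.39 in wild type, with 7 of 8 tested at a positive log2 fold change, 1 of 8 (Ngp) higher in both NICcA libraries, 0 called by edgeR and Ngp called higher by DESeq2. Their sum, 653 to 993 CPM in wild type and 575 to 720 CPM in NICcA, was mostly Mmp8, the tested marker with a negative value (-0.46). Markers of mast cells, megakaryocytes and erythroid cells summed to 35.2 to 46.2 CPM in wild type and 63.6 to 78.0 CPM in NICcA. Of the 7 tested, 0 were called by edgeR and 2, Cpa3 and Itga2b, were called higher by DESeq2, beside 3.95% of all genes. Stromal and osteoclast markers summed to 305 to 709 and 245 to 266 CPM, mostly Ctsk and Acp5. Ctsk stood at 160, 259 and 569 CPM in wild type against 81.0 and 106 CPM in NICcA. Ocstamp, an osteoclast marker on the same list, went the other way and was called higher by DESeq2. It stood at 4.51, 2.91 and 1.41 CPM in wild type against 21.5 and 10.2 CPM in NICcA. Acp5 overlapped between the genotypes. Of the 7 tested genes of this list, 2 were higher and 2 lower in both NICcA libraries, beside 18.3% and 18.5% of all tested genes. The collagen gene Col3a1 had 419 reads in wild type replicate 1 and 1 or 2 in each other library. The part of any of these cells in the values of Socs1, Socs2, Socs3 and Cish was not tested.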

How the data were processed

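RNA of 3 wild type and 2 NICcA macrophage cultures was sequenced. The deposited table holds the authors' raw read count and RPKM for each RefSeq transcript row, as the series' design text and the headers state. A deposited table of RPKM alone was not used. Bowtie 0.12.2 and build mm8 are listed in the submitters' processing notes. Which tool counted the reads, with what strand setting and filters, is not given in the sources used here. Promoter windows are from RefSeq on GRCm38.p6, a different build, and were matched by symbol.

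The test was that of edgeR 4.0.16 under R 4.3.3 (filterByExpr, TMM scaling, glmQLFit, glmQLFTest, genotype as the only term), and p-values were adjusted over all 18267 rows. The SE was taken as |log2 fold change| over the root of F. CPM is scaled to TMM library sizes. The method was also run on simulated libraries. Their counts were drawn gene by gene, with no shift shared by many genes of a library. That run therefore does not show how the method performs on these data. DESeq2 1.42.0 and limma 3.58.1 (voom, and log2(RPKM + 1) or log2(RPKM + 0.1)) were alternatives, with other scalings, filters, 1 row per gene, edgeR with legacy = FALSE, a replicate block and the removal of each library. p-values measure the spread between libraries, which may be technical. Figures used matplotlib 3.10.9.

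Members and lists were chosen with earlier results of these data known. All members were named, and of each list around the family the 2 genes with the smallest p, since none passed the threshold. The 3 nearest profiles were named for Socs1, Socs2, Socs3 and Cish. Of each marker list the summed level is given. A further gene list is not reported here, and its genes remain in the counts over all lists.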

Additional observations from a re-analysis of the deposited data

How the results depend on the processing

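The count of called members was 0 in each alternative except DESeq2, which called 2. Over all genes, where edgeR called 4, the count was 11 with no low-count filter, 527 with DESeq2, 8 with edgeR's legacy = FALSE and 2 with limma-voom or with limma on log2(RPKM + 1) or log2(RPKM + 0.1). Leaving out 1 library gave 0 to 44 genes. In the lists around the family, where edgeR called 0, the count was 2 with no filter, 19 with DESeq2, 1 with legacy = FALSE and 0 to 13 without 1 library. Socs1, Socs2, Socs3 and Cish kept a positive and Socs4 and Socs6 a negative log2 fold change in all 18 alternatives. Socs5 turned positive with no scaling factors (0.058), with limma on log2(RPKM + 1) (0.047, also with no filter) and on log2(RPKM + 0.1) (0.054), and spanned -0.22 to 0.10 without 1 library. Leaving out scaling factors moved the median of all genes by 0.11. With the replicate number as a block, 0 members and 0 genes were called, Socs1 and Socs2 had an edgeR adjusted p of 0.095, and Socs7 was at -0.00010. Deviations from the group means correlated at 0.21 between the libraries numbered 2 and at 0.17 between those numbered 3. With 2 NICcA libraries the deviations of that group mirror each other. Wild type replicate 2 against NICcA replicate 3 was therefore at -0.21, and wild type replicate 3 against NICcA replicate 2 at -0.17. These values are not independent and cannot decide whether a number marks a pair, which the labels do not say. With 2 NICcA libraries, differences within that group cannot be assigned to a culture or a mouse.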

Other observations

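Genes of the pathway outside the naming rule, chosen after their values were seen, shared the library order of Cish. Jak2, the kinase that SOCS1 and SOCS3 block, stood at 251, 171 and 84.9 CPM in wild type libraries 1, 2 and 3, against 359 and 274 CPM in NICcA libraries 2 and 3. Its log2 fold change was 0.91 (SE 0.42, edgeR adjusted p = 0.37). Ccnd1, a cyclin of the G1 phase, stood at 12.4, 8.98 and 2.60 CPM in the wild type libraries against 43.6 and 35.0 CPM in the NICcA libraries. In both genes wild type replicate 3 was the lowest library and NICcA replicate 2 the highest, as for Cish. Igf1, a growth factor on the STAT5 list, had the opposite order at its ends, with 330, 323 and 675 CPM in the wild type libraries against 140 and 202 CPM in the NICcA libraries.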
